A study of Mus musculus with 6 samples.

Results

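Described here are 10 genes of the major histocompatibility complex (MHC) class I pathway in RAW 264.7 cells, a mouse macrophage line, grown on coated zinc alloys. They were chosen by gene symbol: H2-K1, H2-D1, B2m, Tap1, Tap2, Tapbp, Psmb8, Psmb9, Erap1 and Nlrc5. All 10 were found among the 54532 genes of the deposited count table, and all 10 were among the 13156 genes with enough counts to test. RNA was sequenced from 6 libraries, 2 for each of 3 alloys. CaP Zn is zinc with a calcium phosphate (CaP) coating, CaP Zn0.8Mn is alloyed with manganese, and CaP Zn0.8Mn0.1Li holds lithium as well as manganese. All 3 groups carried the coating, held zinc and were harvested after 3 days of culture, so no library represents cells without zinc or without the coating. RAW 264.7 is a single transformed line, originally from a BALB/c mouse, and its response is that of 1 line. The labels do not say that the 2 libraries of an alloy were separate cultures, so a p-value covers the scatter of these libraries alone, which may be technical.

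MHC class I molecules carry short peptides from proteins made inside a cell to its surface, where cytotoxic T cells inspect them. A class I molecule consists of a heavy chain (H2-K1, H2-D1) and the invariant light chain beta-2 microglobulin (B2m). Its peptides are cut by proteasomes, in which the inducible catalytic subunits encoded by Psmb8 and Psmb9 can replace constitutive ones to form immunoproteasomes. Peptides are pumped into the endoplasmic reticulum by the transporter TAP (Tap1, Tap2), trimmed there by an aminopeptidase (Erap1) and loaded with the help of tapasin (Tapbp). Nlrc5 encodes the transactivator that, with factors bound to the S, X and Y boxes of class I promoters, raises transcription of the heavy chains, B2m and several of the processing genes. Interferon gamma and NF-kB signalling are the best known inducers of the set in macrophages.

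Promoters are shown first because these inducers are known to act through promoter sequences, which were searched for here. Of the 10 genes, 8 had a promoter in the RefSeq table of build GRCm38.p6, which is that of the C57BL/6J strain. Tap2 and Nlrc5 had no entry there. Each line gives the 250 bases before the RefSeq start, 5′ to 3′ on the gene's strand, except that Tap1 and Psmb9 are transcribed away from each other and share 225 bases between their starts, given on the plus strand. Capitals mark the NF-kB motif GGGATTCCC or GGGANTTTC, the interferon response motif AANNGAAAC or GAAANNGAA, and the pair of TGACG and ATTGG with 20 bases between them, on either strand. The last pair stands for the X2 and Y boxes.
B2m, chr2:122147437-122147686, plus strand: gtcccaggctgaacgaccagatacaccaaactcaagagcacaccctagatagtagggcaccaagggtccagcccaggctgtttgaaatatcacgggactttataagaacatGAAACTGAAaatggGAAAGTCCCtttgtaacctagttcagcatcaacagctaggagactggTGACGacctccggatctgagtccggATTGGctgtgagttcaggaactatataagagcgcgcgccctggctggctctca
H2-D1, chr17:35262844-35263093, plus strand: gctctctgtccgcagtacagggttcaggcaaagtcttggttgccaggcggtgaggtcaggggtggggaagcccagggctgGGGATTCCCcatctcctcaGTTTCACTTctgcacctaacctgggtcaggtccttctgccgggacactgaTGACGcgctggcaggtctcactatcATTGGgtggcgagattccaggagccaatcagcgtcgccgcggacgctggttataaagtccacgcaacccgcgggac
Tap1 and Psmb9, chr17:34187331-34187555, plus strand: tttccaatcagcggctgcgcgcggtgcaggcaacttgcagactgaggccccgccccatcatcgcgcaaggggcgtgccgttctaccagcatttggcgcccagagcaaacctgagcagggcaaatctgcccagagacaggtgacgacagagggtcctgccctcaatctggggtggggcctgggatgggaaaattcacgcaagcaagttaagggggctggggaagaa
Psmb8, chr17:34197945-34198194, plus strand: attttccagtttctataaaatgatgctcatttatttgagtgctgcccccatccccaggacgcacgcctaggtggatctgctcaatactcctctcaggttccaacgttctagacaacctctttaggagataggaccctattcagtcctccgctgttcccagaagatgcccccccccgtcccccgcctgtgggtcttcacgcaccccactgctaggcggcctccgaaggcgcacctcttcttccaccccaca
Tapbp, chr17:33919228-33919477, plus strand: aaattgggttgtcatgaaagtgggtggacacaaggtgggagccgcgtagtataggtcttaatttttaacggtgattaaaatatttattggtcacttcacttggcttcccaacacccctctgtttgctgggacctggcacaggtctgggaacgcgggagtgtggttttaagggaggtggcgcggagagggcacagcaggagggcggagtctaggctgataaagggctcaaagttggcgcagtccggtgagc
Erap1, chr13:74639603-74639852, plus strand: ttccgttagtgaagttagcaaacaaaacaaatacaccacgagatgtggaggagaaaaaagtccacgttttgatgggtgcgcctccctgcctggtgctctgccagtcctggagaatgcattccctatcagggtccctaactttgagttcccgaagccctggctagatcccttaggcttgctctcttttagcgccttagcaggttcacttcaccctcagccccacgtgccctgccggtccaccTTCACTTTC

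The 3 genes of the surface molecule held all of the capitals but one stretch, TTCACTTTC at the end of the Erap1 promoter. H2-D1 had GGGATTCCC, followed by GTTTCACTT, a match to AANNGAAAC on the minus strand, and H2-K1, which is not printed, had both as well. Of all 32851 RefSeq promoters of the same length, 0.301% held GGGATTCCC and 4.95% held AANNGAAAC. B2m had other forms, GAAACTGAA (7.13% of promoters held GAAANNGAA, Erap1 among them) and GAAAGTCCC (0.941% held GGGANTTTC). TGACG and ATTGG at that spacing were in H2-K1, H2-D1 and B2m, and in 0.0913% of all promoters. The spacing was noticed in these promoters and then counted over all of them. Among the other class I heavy chain genes listed for this work, 1 of 8 with a promoter had the pair, H2-M3. TGACG or ATTGG alone (the latter searched as CCAAT) was common, in 17.8% and 33.8% of promoters, and the GAS motif TTCNNNGAA, bound by STAT factors, was found in 1 of the 8 genes, Psmb8, and in 7.02% of promoters. The NF-kB and interferon motifs were shortened by 1 base after matches to the longer forms had been seen. The shorter forms are matched by more promoters, and the Erap1 match appeared only with them. These are matches of letters, and binding was not measured.

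One library stood apart before any comparison. CaP Zn0.8Mn replicate 1 had 7.88% mitochondrial counts against 1.82% to 2.15% in the other 5, and across 13156 genes, which are not independent, the correlation of its log2(CPM + 1) with theirs was 0.912 to 0.929, while among themselves they reached 0.993 to 0.996. CPM is the count relative to library size, with sizes scaled by the TMM method. Its departure from the other libraries also ran with gene length (Spearman rho 0.38 across genes, against -0.17 to 0.20 for each other library). The sum of counts per library was 14944070 to 17709290. The limit that a count of 0 allows, 3 counts, was 0.161 to 0.198 CPM and covers counting error only. Macrophage markers fitted the label of the line in that 9 of the 10 listed had enough counts to test. The exception was Mertk, with at most 4 reads in any of the other 5 libraries and 14 in the library that stood apart. The summed level of all 10 was 8964 CPM in that library and 10787 to 16384 in the others. The list split in that library, where 4 of the 9 tested markers lay above all other libraries and 5 below. Those above were Csf1r, the colony-stimulating factor receptor gene (1598 CPM against 319 to 374), Ptprc (453 against 224 to 246), Adgre1 (331 against 188 to 269) and Fcgr1 (55.2 against 15.3 to 22.6). Those below were Cd68, Itgam, Spi1, Aif1 and the lysozyme gene Lyz2, which made up most of the sum (5861 CPM against 9182 to 14549). Lists of 5 markers each were near 0 for T cells (at most 0.183 CPM summed, Cd3d, Cd8a and Trac at 0) and fibroblasts (at most 0.122, Col1a2, Pdgfra, Dcn and Lum at 0), and low for dendritic cells (4.16 in that library, 1.13 to 3.14 elsewhere). The part of these differences in the class I values was not tested, and every comparison is therefore given with and without that library.

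B2m and H2-D1 were the most abundant of the 10. Per length, in FPKM (the deposited levels scaled to transcript length and library size), the order in every library was B2m, H2-D1, Tapbp, H2-K1, with Nlrc5 last. In the 5 similar libraries B2m lay between 1520 and 1804 FPKM, H2-D1 between 278 and 362, Tapbp between 54.6 and 65.2 and H2-K1 between 40.0 and 51.6. These ranges did not overlap, except that Psmb8 (36.3 to 49.4 FPKM) overlapped H2-K1. Tap1 followed with 14.8 to 16.3 FPKM. Tap2 (9.62 to 11.7), Psmb9 (9.10 to 11.5) and Erap1 (9.09 to 10.2) changed places between libraries and did not differ beyond their spread, and Nlrc5 had 3.94 to 4.86. In these libraries B2m thus exceeded the sum of H2-K1 and H2-D1 in FPKM 4.18 to 4.78 times. Other heavy chain genes are not in that sum, among them H2-T23 (45.7 to 51.5 FPKM) and H2-Q6 (36.1 to 48.0). BALB/c mice carry the H-2d haplotype, whose H2-K and H2-D alleles differ from those of the C57BL/6J reference. The levels of H2-K1 and H2-D1 therefore depend on how reads of one allele were placed on the other. Of the 50-base stretches of their transcripts, 9.63% (H2-K1) and 12.8% (H2-D1) recur in other genes, class I genes among them, so a part of their reads is uncertain. The share was 23.2% for Tapbp, 11.9% for Psmb8 and 11.6% for Tap2, each with an antisense or overlapping gene as its closest match. It was at most 10.7% for the other genes, and B2m shares no such stretch.

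The light chain gene B2m (ENSMUSG00000060802, chromosome 2: 122147686 to 122153083, plus strand) read 1322 and 1482 CPM (CaP Zn), 446 and 1536 (CaP Zn0.8Mn) and 1561 and 1455 (CaP Zn0.8Mn0.1Li). Only CaP Zn0.8Mn replicate 1 was low, 0.303 times the mean of the other 5, whose highest value was 1.18 times the lowest. The heavy chain gene H2-D1 (ENSMUSG00000073411, chromosome 17: 35262730 to 35267499, plus strand) read 726 and 855, 309 and 937, and 935 and 913 CPM in the same order. Its low library was the same, at 0.354 times the others, and both libraries with lithium lay above both on CaP Zn. H2-K1 (ENSMUSG00000061232, chromosome 17: 33996017 to 34000333, minus strand), the other classical heavy chain among the 10 genes, read 105 and 115, 66.7 and 135, and 118 and 133 CPM. Here too replicate 1 on CaP Zn0.8Mn was lowest and replicate 2 was the highest of the 6. Fewer expressing cells and less RNA per cell cannot be told apart in these bulk libraries.

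**Figure D1:**
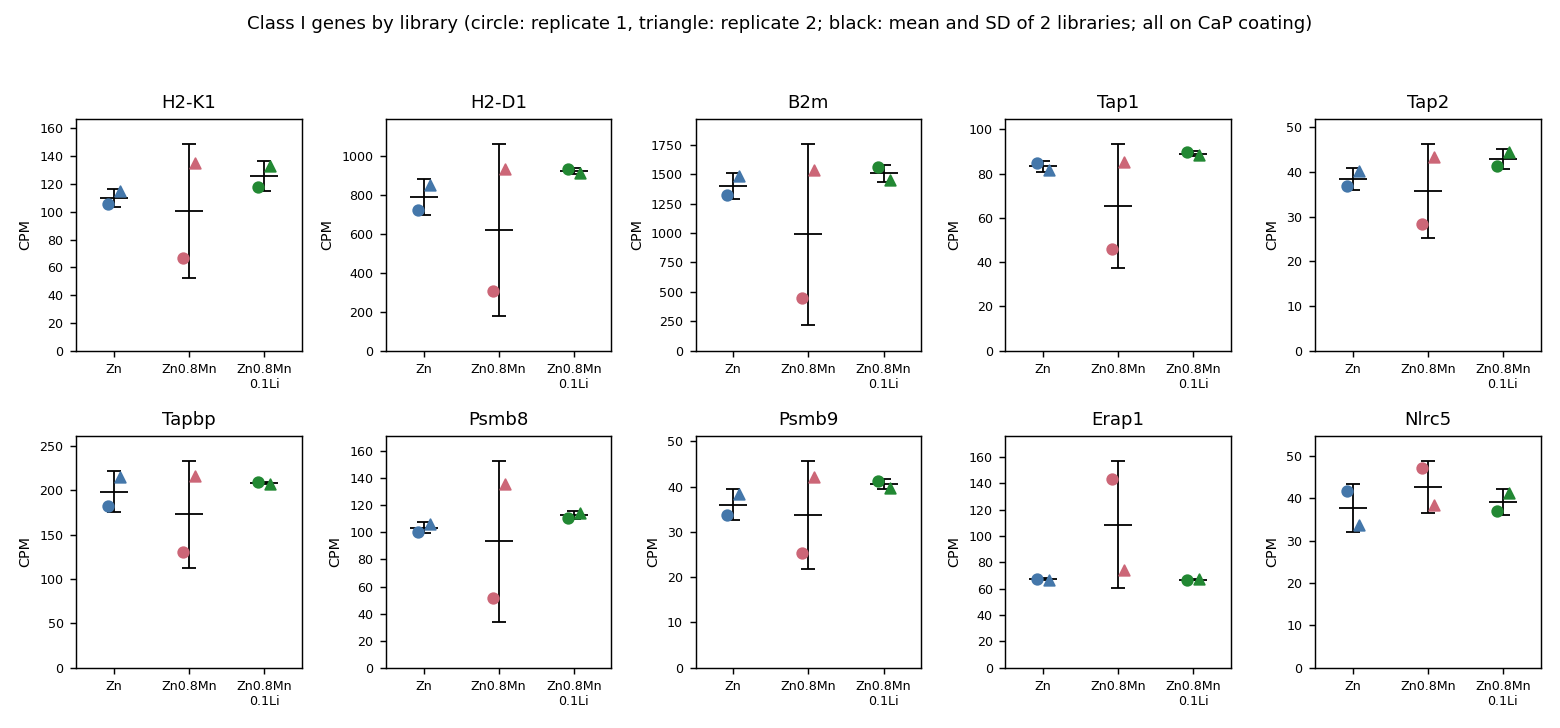
Level of each of the 10 class I genes in CPM (vertical axes, from 0) by alloy (horizontal axes, all coated with CaP), with a circle for replicate 1, a triangle for replicate 2, and black bars for the mean and SD of 2 libraries. The circle on Zn0.8Mn is below all other points for 8 genes and above them for Erap1 and Nlrc5. The highest of the other 5 points is 1.10 (Tap1) to 1.35 (Psmb8) times the lowest. For Nlrc5 it is 1.24 times the lowest, and the circle is 1.23 times the mean of those 5.

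Both inducible proteasome genes followed the surface genes. Psmb8 (ENSMUSG00000024338, chromosome 17: 34197721 to 34201454, plus strand), which encodes the chymotrypsin-like subunit beta5i, read 101 and 106 CPM (CaP Zn), 51.4 and 135 (CaP Zn0.8Mn) and 111 and 115 (CaP Zn0.8Mn0.1Li). Psmb9 (ENSMUSG00000096727, chromosome 17: 34181988 to 34187764, minus strand), which encodes beta1i, read 33.7 and 38.4, 25.3 and 42.2, and 41.3 and 39.7 CPM. In both, replicate 1 on CaP Zn0.8Mn was the lowest and replicate 2 on the same alloy the highest, and the libraries with lithium lay above those on CaP Zn. The constitutive subunit gene that each replaces was low in the same library, and the ratio of the FPKM values varied less than the levels of these 2 genes. Psmb8 over Psmb5 was 0.448 and 0.475 (CaP Zn), 0.540 and 0.524 (CaP Zn0.8Mn) and 0.473 and 0.504 (CaP Zn0.8Mn0.1Li). Both libraries on CaP Zn0.8Mn, the one that stood apart included, were above the other 4 in this ratio (means of 0.532 ± 0.0118, 0.461 ± 0.0191 on CaP Zn and 0.489 ± 0.0219 with lithium; SD, n = 2 each). An exact two-sided permutation test gave p = 0.333 for CaP Zn0.8Mn against CaP Zn, the smallest value that 2 against 2 allows, so no difference can pass at this size. Psmb9 over Psmb6 was 0.0746 to 0.0824 in the 5 similar libraries and 0.101 in the remaining one. For Psmb10, the third inducible subunit gene, over Psmb7 the values were 0.348 to 0.423 and 0.523. Of the 9 comparisons of these 3 ratios, none could give an exact permutation p below 0.333, so these tests decide nothing.

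**Figure D2:**
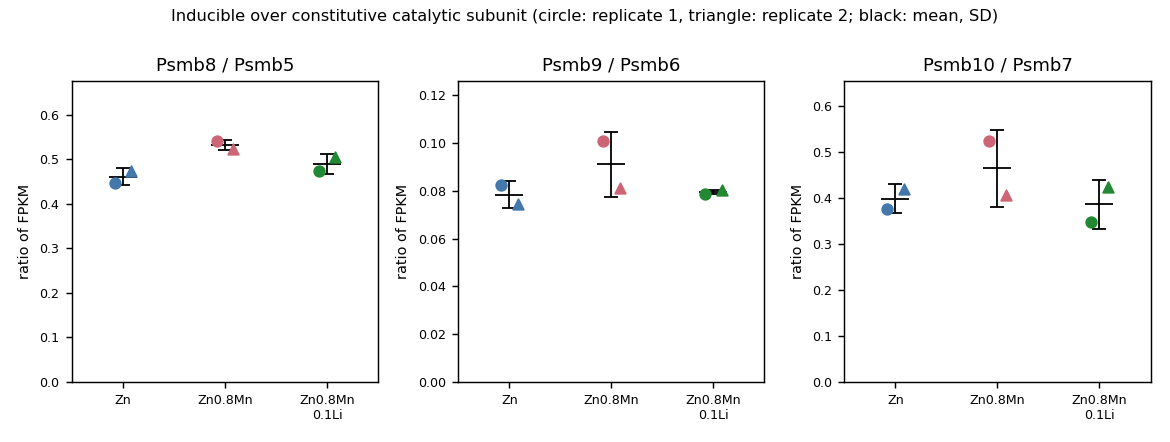
Ratio of FPKM of each inducible catalytic subunit gene to the constitutive gene it replaces (vertical axes, from 0) by alloy, with circles for replicate 1, triangles for replicate 2, and black bars for the mean and SD of 2 libraries. Both Zn0.8Mn points of Psmb8 / Psmb5 (0.540 and 0.524) lie above the other 4, and for the other pairs only the Zn0.8Mn circle does.

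The transporter and loading genes were also lowest in that library. Tap1 (ENSMUSG00000037321, chromosome 17: 34187553 to 34197225, plus strand) read 85.0 and 81.6 CPM (CaP Zn), 45.7 and 85.3 (CaP Zn0.8Mn) and 89.7 and 88.2 (CaP Zn0.8Mn0.1Li). Apart from the low library its highest value was 1.10 times its lowest, the narrowest spread of the 10 genes. Tap2 (ENSMUSG00000024339, chromosome 17: 34203527 to 34216321, plus strand), its partner in the transporter, read 36.8 and 40.3, 28.4 and 43.3, and 41.4 and 44.5 CPM. Tapasin, Tapbp (ENSMUSG00000024308, chromosome 17: 33915899 to 33929288, plus strand), read 182 and 215, 130 and 216, and 209 and 207 CPM. In replicate 1 on CaP Zn0.8Mn these genes stood at 0.532 (Tap1), 0.689 (Tap2) and 0.633 (Tapbp) times the mean of the other 5 libraries. The gene spans of Tap1 and Psmb9 overlap by 212 bases on opposite strands, Tapbp shares 3421 bases of span with Zbtb22 on its own strand, and whether counting used strand is not stated in the labels or headers. Reads in those stretches are uncertain, and Zbtb22 had 331 to 470 counts in a library.

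Erap1 and Nlrc5 did not follow. Erap1 (ENSMUSG00000021583, chromosome 13: 74639568 to 74693201, plus strand), the trimming aminopeptidase, read 67.6 and 66.7 CPM (CaP Zn), 143 and 74.4 (CaP Zn0.8Mn) and 66.5 and 67.4 (CaP Zn0.8Mn0.1Li). Replicate 1 on CaP Zn0.8Mn was here the highest, 2.09 times the mean of the others, and replicate 2 was the next. Erap1 overlaps 834 bases of Cast on the opposite strand, and 10.7% of its 50-base stretches recur there. Cast had 1108 to 1564 counts in a library. Since the use of strand in counting is not stated, reads in that stretch are uncertain too. Nlrc5 (ENSMUSG00000074151, chromosome 8: 94434356 to 94527272, plus strand), the class I transactivator gene, read 41.8 and 33.7, 47.1 and 38.5, and 37.0 and 41.3 CPM. The 3 alloys overlapped, and the library in which the surface genes were lowest had the highest Nlrc5, at 1.23 times the mean of the rest. Erap1 and Nlrc5 are also the longest of the 10 at 7280 and 8493 bases, and B2m, which was lowest in that library, is the shortest at 860 bases. With the relation to gene length given above, the part of length in this split was not tested.

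CaP Zn0.8Mn against CaP Zn asked about the addition of manganese. With 6 libraries 8 of the 10 class I genes had lower and 2 higher means on CaP Zn0.8Mn, with a median log2 fold change of -0.14 (0.0048 over all 13156 tested genes), and 0 of 10 passed an adjusted p under 0.05 (edgeR quasi-likelihood test, Benjamini-Hochberg over all genes), where 0% of all tested genes did. Of those tested genes 207 (1.57%) had an unadjusted p under 0.05, none of them a class I gene described here. DESeq2 called 1 gene, not one of the 10, and limma-voom 0. B2m had the most negative estimate, a log2 fold change of -0.50 (SE 0.57, adjusted p = 0.773) with a 95% interval from -1.92 to 0.92. Erap1 had the most positive, 0.69 (SE 0.32, adjusted p = 0.773, interval -0.11 to 1.50), and was the 1 gene of the 10 whose libraries did not overlap, both being higher, as in 12.5% of tested genes. The intervals of all 10 included 0, and for B2m they allowed anything from 0.265 to 1.89 times, so no lack of change is shown.

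Without CaP Zn0.8Mn replicate 1 the 8 lower genes turned and all 10 were higher, from 0.024 (Nlrc5) to 0.39 (Psmb8) on the log2 scale, with a median of 0.16 against -0.0084 over all tested genes. The estimate for Erap1 was 0.15 in this fit, against 0.69 with 6 libraries. The remaining CaP Zn0.8Mn library was then assumed to vary like the other groups. None of the 10 passed after adjustment in edgeR, where 0.0152% of tested genes did. Unadjusted p-values under 0.05 in edgeR were given to Psmb8 (log2 fold change 0.39, SE 0.10, adjusted p = 0.817) and H2-K1 (0.30, SE 0.11, adjusted p = 0.967), and to 4.33% of all tested genes. The single library lay above both CaP Zn libraries for 9 of the 10 genes, as for 32% of tested genes (32.8% lay below), Nlrc5 being the exception. Leaving out replicate 2 instead gave adjusted p-values under 0.05 to 9 of the 10, B2m at -1.66 (adjusted p = 5.21e-07), H2-D1 at -1.36 (adjusted p = 1.38e-06) and Erap1 at 1.08 (adjusted p = 3.2e-07) among them, in a fit that called 7808 of all tested genes. For the 8 genes that turned, the direction on CaP Zn0.8Mn was thus set by which of its 2 libraries was used. Erap1 and Nlrc5 were higher with either.

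**Figure D3:**
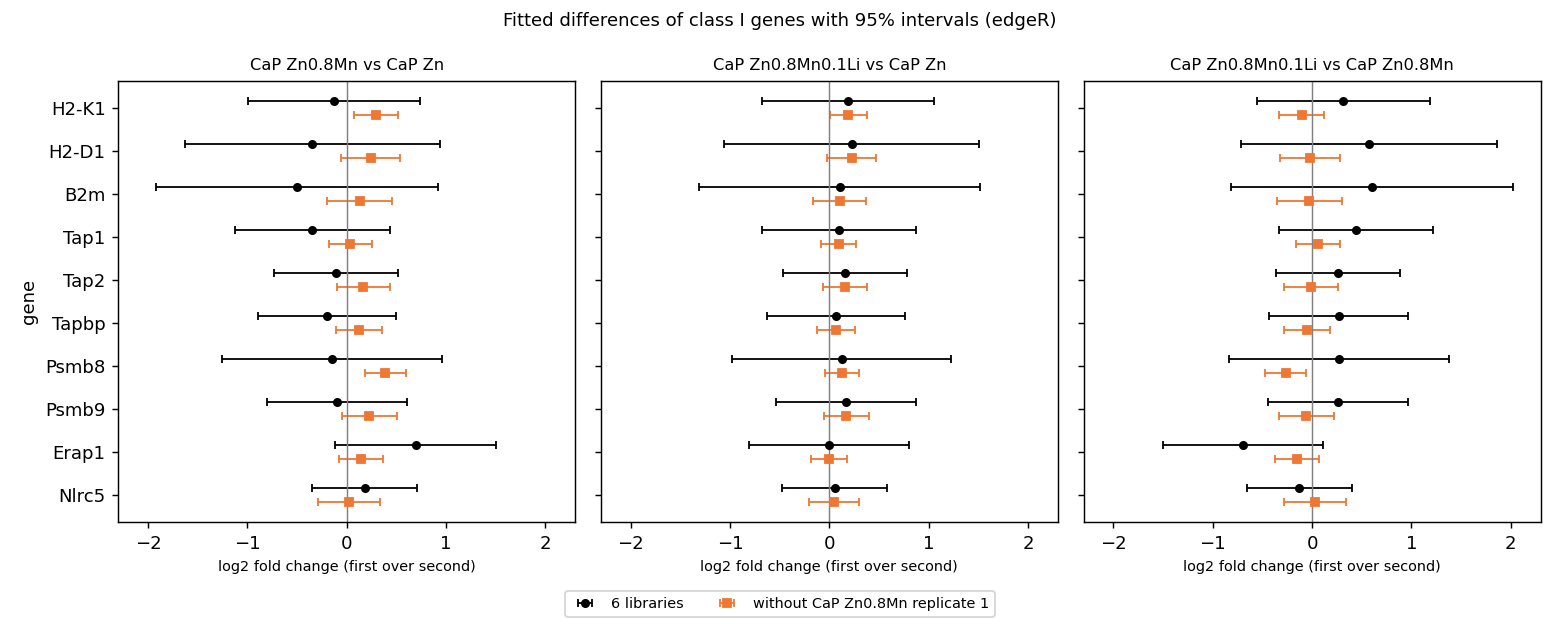
Log2 fold change (horizontal axes, first-named alloy over second) of the 10 class I genes in the 3 comparisons, with 95% intervals from edgeR, fitted to 6 libraries (black circles) or without CaP Zn0.8Mn replicate 1 (orange squares). All black intervals include 0, the orange ones are narrower, and only those of H2-K1 and Psmb8 leave 0 in any panel.

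CaP Zn0.8Mn0.1Li compared with CaP Zn asked what manganese and lithium changed together, and shares the CaP Zn libraries with the comparison above. The means of 9 of the 10 genes were higher with lithium and manganese, by at most 0.23 on the log2 scale (H2-D1, 924 ± 15.6 against 790 ± 91.6 CPM; SD, n = 2 each), while Erap1 had a log2 fold change of -0.0034 (67.0 ± 0.644 against 67.1 ± 0.697 CPM). The median was 0.11, against 4.7e-05 over all tested genes. For 6 of the 10, namely H2-K1, H2-D1, Tap1, Tap2, Psmb8 and Psmb9, both libraries lay above both CaP Zn libraries, and for none below, while 16.7% of all tested genes were higher in this way and 16.8% lower. In the edgeR test 0 of 10 passed, with an adjusted p of 1.00 each, and 0% of all tested genes did. Of the tested genes 29 (0.22%) had an unadjusted p under 0.05, and DESeq2 and limma-voom called 0.

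The spread of CaP Zn0.8Mn replicate 1 widened this test, since the 3 alloys share 1 estimate. Without that library the log2 fold changes were the same to within 0.01 and their intervals narrowed, that of H2-D1 from -1.06 to 1.51 down to -0.020 to 0.47. H2-K1 (0.19, SE 0.087) had an unadjusted p of 0.0461 and an adjusted p of 0.967 in edgeR, and the other 9 genes had unadjusted p-values above the threshold, while 5.02% of tested genes were under it. Upper limits of the 95% intervals then lay between 1.13 times (Erap1) and 1.39 times (H2-D1) the CaP Zn level, so larger rises than these were outside the intervals of this fit. The difference also leaned on CaP Zn replicate 1, which was the lowest of the 5 similar libraries for H2-K1, H2-D1, B2m, Tap2, Tapbp, Psmb8 and Psmb9. Without that library the median was 0.087, and Tapbp turned to -0.048.

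CaP Zn0.8Mn0.1Li compared with CaP Zn0.8Mn asked what lithium added to manganese. With 6 libraries 8 of the 10 genes were higher with lithium, B2m most (1508 ± 74.9 against 991 ± 771 CPM, log2 fold change 0.61, SE 0.57, adjusted p = 0.680), and Erap1 and Nlrc5 were lower (-0.70, SE 0.32, adjusted p = 0.680, and -0.13, SE 0.21, adjusted p = 0.765). In edgeR 0 of 10 passed and 0% of tested genes did, with 316 of them (2.4%) at an unadjusted p under 0.05, none of the 10 included. DESeq2 called 3 genes and limma-voom 0. Both lithium libraries lay above both others for Tap1 alone (17.1% of tested genes) and below for Erap1 alone (17.5%). Without CaP Zn0.8Mn replicate 1 the median went from 0.27 to -0.039, 8 genes were lower and 2 (Tap1 at 0.060 and Nlrc5 at 0.025) higher, and 0 of 10 passed (0.0152% of tested genes). Erap1 was then at -0.15. Both lithium libraries then lay below the remaining CaP Zn0.8Mn library for 6 genes, as for 34.4% of tested genes, and above it for Tap1, as for 33.5%. Psmb8 was then lowest, at -0.27 (SE 0.097, unadjusted p = 0.0151, adjusted p = 1.00 in edgeR, 3.16% of tested genes at an unadjusted p under 0.05).

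In the library that stood apart, the lists of the wider pathway differed in how many genes were low. Against the mean of the other 5 libraries, on log2(CPM + 1), the 10 genes had a median of -0.75, and 8 lay below and 2 above all other 5, where 41.9% of all tested genes lay below and 42% above. The other class I heavy chain genes were below in 11 of 11 tested (median -1.26). Among them the non-classical H2-T23, which encodes Qa-1, read 57.0 CPM against 133 to 149, and H2-Q6 read 21.3 against 76.1 to 101. Constitutive 20S proteasome genes were below in 14 of 14 (-0.78), with Psma6 at 90.9 CPM against 236 to 287 and Psmb4 at 180 against 304 to 342. The other inducible proteasome genes were below in 4 of 4 (-0.88), with the activator subunits Psme2 at 68.7 against 137 to 162 and Psme1 at 72.8 against 110 to 121 CPM. The low values were thus shared by inducible and constitutive proteasome genes. The relation of this library's departure to gene length, given above, was taken over all tested genes, these lists included. The part of length in the list counts was not tested.

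Genes of peptide loading and folding in the endoplasmic reticulum were below in 8 of 11 and above in 2 (median -0.35). The chaperones Hspa5 (1001 CPM against 4248 to 6031) and Calr (423 against 1397 to 2121), calreticulin of the loading complex, were the 2 most abundant per length. Cytosolic peptidases went both ways (2 below and 3 above of 6), with Lap3 at 93.6 CPM against 118 to 135 and Blmh at 179 against 101 to 111. Regulators of class I transcription were below in 4 and above in 7 of 15. Among them Nfya, a subunit of the Y-box factor NF-Y, read 125 CPM against 115 to 134, and the NF-kB subunit gene Rela 43.5 against 31.4 to 37.0. The list of interferon receptors and kinases was below in 3 and above in 3 of 9, with Ifngr2 at 90.5 against 84.5 to 103 and Jak1 at 208 against 159 to 170 CPM. It also held Socs1 and Socs3, which are neither receptors nor kinases. Both were below, at 0.0661 CPM against 0.384 to 1.87 (Socs1) and 6.61 against 14.9 to 22.7 (Socs3). The only receptor gene below was Ifnar2 (56.7 against 61.8 to 68.5), while Ifngr1, Ifnar1 and Jak1 were above. Genes other than Ifngr2 and Jak1 were named after their values were seen.

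Of the MHC class II genes, which present peptides taken up from outside, 3 of 8 had enough counts to test. Cd74, the invariant chain, read 464 CPM in CaP Zn0.8Mn replicate 1 against 734 to 1030, and the lysosomal protease gene Ctss 677 against 666 to 835. The 5 with too few counts were named after their values were seen. Ciita, which encodes the class II transactivator, had 59 counts in that library and 0 or 1 in each of the other 5. H2-Aa had 15 counts there against 0, H2-Eb1 20 against 0 to 9, H2-DMb1 8 against 0 or 1, and H2-Ab1 9 against 3 to 9.

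**Figure D4:**
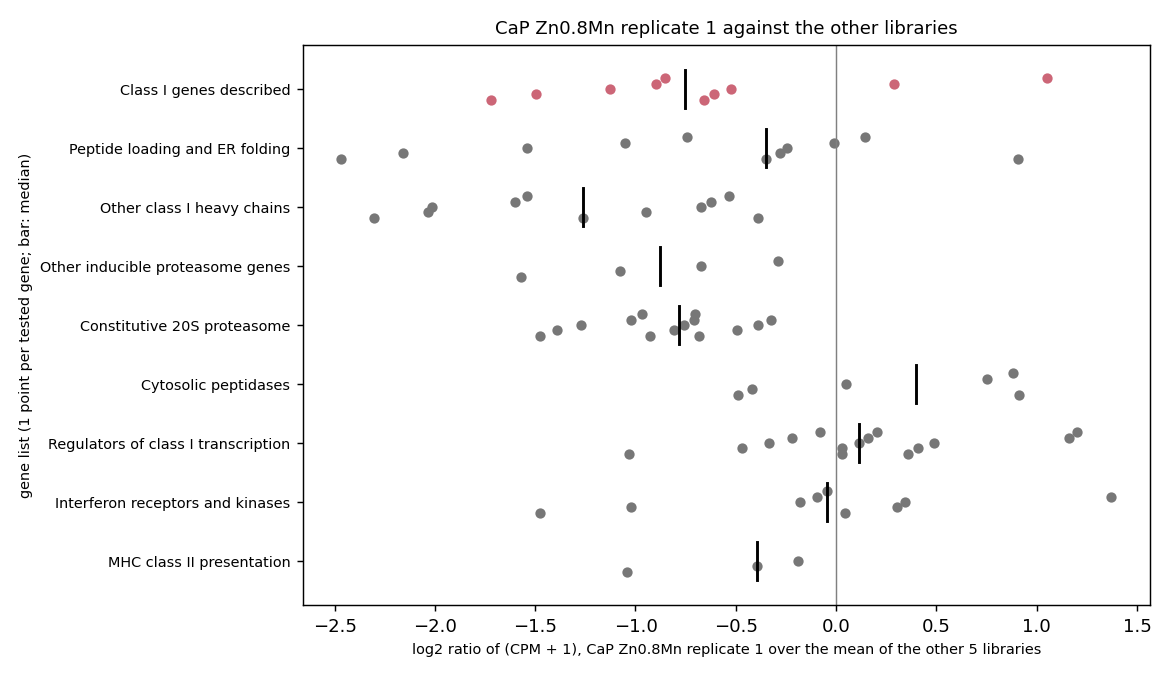
Log2 ratio of CPM + 1 in CaP Zn0.8Mn replicate 1 to the mean of the other 5 libraries (horizontal axis) for each tested gene (points) of the class I genes described (red) and of the other lists (grey), with a black bar at each median. All points of the other heavy chains and of both other proteasome lists lie below 0, while regulators and interferon receptors lie on both sides.

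Between alloys none of these 8 lists held a gene that passed in edgeR with 6 libraries. For CaP Zn0.8Mn against CaP Zn their medians ran from -0.34 (other heavy chains, 10 of 11 lower) to 0.22 (cytosolic peptidases, 4 of 6 higher). With lithium and manganese over CaP Zn they ran from -0.11 (regulators, 11 of 15 lower) to 0.15 (class II, 3 of 3 higher), with 8 of 11 other heavy chains higher (0.15). Without CaP Zn0.8Mn replicate 1, 0 genes of these lists passed in any comparison, but directions for CaP Zn0.8Mn against CaP Zn turned. Other heavy chains were then higher in 9 of 11 (median 0.23), constitutive 20S genes in 14 of 14 (0.13, from 14 of 14 lower at -0.27 with that library) and other inducible proteasome genes in 4 of 4 (0.18, from 4 of 4 lower). The median of the peptidases was 0.040. In that edgeR fit H2-Q4 (0.34, adjusted p = 0.663) and H2-Q6 (0.30, adjusted p = 0.596), named after their values were seen, had the lowest unadjusted p-values of the other heavy chains when CaP Zn0.8Mn0.1Li was set against CaP Zn.

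Among themselves, the 10 genes varied together less evenly once that library was set aside. Over the other 5 libraries, Pearson's r of log2(CPM + 1) with the mean of the remaining 9 genes was 0.93 for H2-K1, 0.92 for Tap2, 0.91 for Psmb9, 0.89 for H2-D1, 0.85 for Psmb8, 0.75 for B2m, 0.71 for Tapbp, 0.53 for Erap1, 0.37 for Tap1 and -0.20 for Nlrc5. These are descriptions over 5 points that share libraries and depth. Over 6 libraries, the 8 genes other than Erap1 (-0.95) and Nlrc5 (-0.74) had r from 0.96 to 0.99, a figure that rests on 1 library. The mean profile of the 10 genes over the 5 libraries was lowest in CaP Zn replicate 1 (-0.12) and replicate 2 (-0.045) and highest in CaP Zn0.8Mn replicate 2 (0.096), with both lithium libraries between them (0.022 and 0.049). In the same order, the Spearman rho of each library's departure with gene length was 0.20, 0.027, -0.17, -0.056 and -4.8e-04. The part of length in this profile was not tested. Of 7219 other genes of at least 20 CPM, those closest to that profile were Mrpl27, Cycs, Gaa, Gusb and Igsf8 (r = 0.99 to 1.00). These genes were picked as the highest of 7219 correlations over 5 points, and shared regulation was not tested. They were not alike in the library left out: Mrpl27 read 13.7 CPM there against 45.5 to 53.9 elsewhere, and Gusb 402 against 312 to 366. Over 6 libraries the closest of 7290 genes were Spcs1, Micall2, Raly, Tspan4 and Dynll2 (r = 1.00 each after rounding). They were picked in the same way.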

How the data were processed

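RNA from 6 samples was extracted with TRIzol and made into mRNA libraries (Illumina TruSeq), per the labels' protocols. The authors deposited whole-number read counts per gene, without normalization, and FPKM values for the same genes, with 0 columns of other samples. No label or header names the aligner or counter. The genome build mm9 is named in the submitters' processing notes, but 98.3% of 54409 gene IDs matched to GENCODE M21 have its GRCm38 start and end (7 of the 10 genes described), so coordinates are printed as GRCm38. Groups came from the treatment label and replicate numbers from titles. Members, lists and tests were chosen with earlier results of these data known. Counts were tested with edgeR 4.0.16 in R 4.3.3 (TMM, filterByExpr, robust quasi-likelihood fit of group means, two-sided, adjusted p under 0.05 over 13156 genes, 3 residual degrees of freedom). The script was tested on simulated data. Alternatives used DESeq2 1.42.0, limma 3.58.1, other scalings and filters, FPKM, and each library left out. Named genes were the 10, and in each of 8 other lists the 2 of highest mean FPKM. Of those lists, 1 symbol (Nrdc) was not matched. Within each alloy the libraries differed beyond sampling noise (chi-square per gene 10.6, 248 and 5.71). One marker list is not reported here.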

Additional observations from a re-analysis of the deposited data

How the results depend on the processing

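Over the class I genes, 152 of 170 values for CaP Zn0.8Mn over CaP Zn, 165 of 170 for CaP Zn0.8Mn0.1Li over CaP Zn, and 153 of 170 for CaP Zn0.8Mn0.1Li over CaP Zn0.8Mn kept direction and side of the threshold under the alternatives tried. For CaP Zn0.8Mn over CaP Zn, leaving out CaP Zn0.8Mn replicate 2 or replicate 1 gave log2 fold changes of -0.73 and 0.30 (H2-K1), -1.36 and 0.24 (H2-D1), -1.66 and 0.13 (B2m), -0.87 and 0.035 (Tap1), -0.45 and 0.17 (Tap2), -0.62 and 0.12 (Tapbp), -1.02 and 0.39 (Psmb8) and -0.52 and 0.23 (Psmb9). Psmb9 also turned to 0.0044 without CaP Zn replicate 2. For CaP Zn0.8Mn0.1Li over CaP Zn0.8Mn the same omissions gave 0.91 and -0.11 (H2-K1), 1.58 and -0.020 (H2-D1), 1.76 and -0.027 (B2m), 0.60 and -0.012 (Tap2), 0.68 and -0.051 (Tapbp), 1.13 and -0.27 (Psmb8), 0.68 and -0.059 (Psmb9) and -0.27 and 0.025 (Nlrc5). For CaP Zn0.8Mn0.1Li over CaP Zn, leaving out 1 library at a time gave -0.048 to 0.19 (Tapbp), -0.016 to 0.0062 (Erap1) and -0.094 to 0.21 (Nlrc5, with -0.031 without CaP Zn0.8Mn0.1Li replicate 2), and Erap1 turned to 3.7e-04 with a mean count of at least 100. The cause was not tested.

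Genes called over the whole table numbered 0 in each comparison. DESeq2 called 1 for CaP Zn0.8Mn over CaP Zn and 3 for CaP Zn0.8Mn0.1Li over CaP Zn0.8Mn, and edgeR without a filter on low counts called 1 in each. Leaving out 1 library at a time gave 0 to 7808 and 0 to 8096 there, the highest without CaP Zn0.8Mn replicate 2 and 2 in each without replicate 1, and 0 throughout for CaP Zn0.8Mn0.1Li over CaP Zn. The main fit used no pairing by replicate number. Deviations of same-numbered libraries correlated across genes at 0.31 between CaP Zn and CaP Zn0.8Mn. The values were -0.22 between CaP Zn and CaP Zn0.8Mn0.1Li and -0.10 between the alloys with manganese. Genes are not independent, so these values cannot show whether the samples were paired. The fit with the replicate number as a block called 0 genes in each comparison. With 2 libraries an alloy and 1 of them apart, only large differences could be called for CaP Zn0.8Mn.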
